A study of Homo sapiens with 27 samples.

Results

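Messenger RNA levels of 43 genes that license and run DNA replication were described in 3 human colorectal cancer (CRC) cell lines, HCT116, SW480 and DLD-1. The 43 were all rows whose symbol stood in a fixed list of helicase, origin, polymerase, clamp, single-strand binding and E2F genes, and they were found among the 26255 gene symbols of each table. The rule read gene symbols and no measured value, but the list was drawn up with earlier results of these data known. Each line was measured as untreated cells (WT, labelled as negative control), as cells resistant to 5-fluorouracil (5-FU res) and as cells resistant to oxaliplatin (OX res), so that 27 libraries fell into 9 groups of 3. 5-FU is a pyrimidine analogue that blocks thymidylate synthesis, and OX is a platinum drug that crosslinks DNA. Resistant cells had been grown for about 6 months in 5 to 70 μM of 5-FU or in 5 to 35 μM of OX, and the drugs were not said to be present or absent at harvest. The methods describe how resistant HCT116 and SW480 cells were made, with a start at 5 μM and a gradual increase, but their text names no end dose or months. The end doses and months come from the series for all 3 lines, and resistant DLD-1 cells are described in its design text alone. The sources do not say how many resistant cultures were derived per line and drug, whether they were clones, or whether libraries of a group were grown separately, and each p therefore measured only the spread between these libraries. Because RNA came from whole cultures, fewer cells in S phase and less of these transcripts per cell could not be told apart.

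Before S phase, the origin recognition complex (ORC), CDC6 and CDT1 load the MCM2-7 helicase on DNA, which is called licensing, while geminin (GMNN) holds CDT1 inactive once replication has begun. CDC45, the GINS complex and MCM10 turn the loaded helicase into a moving fork. Polymerase alpha-primase then lays down primers, replication factor C (RFC) loads the sliding clamp PCNA, polymerases delta and epsilon copy the strands, RPA covers single-stranded DNA, and FEN1 and LIG1 finish the lagging strand. Many of these genes are transcribed at the border of G1 and S by E2F factors, which are held back by RB family proteins in resting cells.

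The 100 bases just upstream of the RefSeq start (GRCh38.p14, read 5′ to 3′ on the strand of the gene) are printed for 5 genes whose promoter held E2F-type letters there and for 2, ORC4 and RFC1, which were called lower (adjusted p under 0.05) in none of the 6 resistant cultures. Capitals mark TTTCCCGC, TTTCGCGC, TTTGCCGC or TTTGGCGC on either strand.
CDT1, chr16:88803689-88803788, plus strand: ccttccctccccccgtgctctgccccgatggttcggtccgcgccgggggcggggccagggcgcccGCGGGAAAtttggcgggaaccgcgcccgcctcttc
GINS2, chr16:85688955-85689054, minus strand: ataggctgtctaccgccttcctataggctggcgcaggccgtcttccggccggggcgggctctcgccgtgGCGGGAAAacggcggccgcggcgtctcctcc
MCM7, chr7:100101398-100101497, minus strand: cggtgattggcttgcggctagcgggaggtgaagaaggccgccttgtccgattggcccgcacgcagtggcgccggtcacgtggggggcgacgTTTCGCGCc
POLA2, chr11:65261862-65261961, plus strand: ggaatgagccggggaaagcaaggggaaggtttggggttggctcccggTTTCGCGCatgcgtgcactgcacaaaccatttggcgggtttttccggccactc
PCNA, chr20:5126623-5126722, minus strand: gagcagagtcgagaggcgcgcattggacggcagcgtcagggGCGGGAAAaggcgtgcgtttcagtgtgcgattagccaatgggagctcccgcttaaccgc
ORC4, chr2:148021552-148021651, minus strand: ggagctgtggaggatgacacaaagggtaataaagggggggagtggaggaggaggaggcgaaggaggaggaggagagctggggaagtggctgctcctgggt
RFC1, chr4:39366363-39366462, minus strand: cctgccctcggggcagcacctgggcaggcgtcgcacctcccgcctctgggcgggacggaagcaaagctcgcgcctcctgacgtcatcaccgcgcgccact
Of the 43 genes, 37 had a promoter entry (250 bases before to 50 bases after the start), and 19 of these (51.4%) held at least 1 of the 4 E2F-type words, against 3.33% of 27056 distinct promoters and 5.07% of the 11217 promoters of tested genes. CCAAT stood in 21 of 37 (56.8%, against 35.7% of all promoters), and the cell cycle word TTTGAA in 0 of 37, against 15.4% of all promoters and 9.93% of those of tested genes. In MCM7 and POLA2 the word TTTCGCGC lay on the strand of the gene, and in CDT1, GINS2 and PCNA the word TTTCCCGC lay on the other strand, within 60 bases of the start in each of the 5. These 5 do not stand for all members with a word, since each was called lower in all 5 cultures other than DLD-1 OX res. ORC3 and POLE also held a word within 60 bases of the start and were called lower in only 2 of the 6. FEN1 and RFC2 held no word and were called lower in 5. Only exact matches were counted, so that near forms such as tttggcggg, seen in CDT1 and POLA2 above, were neither marked nor counted. The members with 1 of the 4 words and those without are set side by side after the results by role.

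All 43 genes reached at least 1 TPM (transcripts scaled to the same sum in each library) in all 27 libraries. FPKM sums ranged from 451767 to 804635, and the relative depth read from the steps of low values ranged from 0.721 to 1.13 of that of the first HCT116 WT library. Absolute depth was unknown. Libraries of a group correlated at r of 0.991 to 0.995 across genes on log2(TPM + 1), and none were identical. Of the epithelial markers, KRT8, KRT18, KRT19, EPCAM and CDH1 were above 1 TPM in every library, while PTPRC, CD3E, COL1A2, DCN, LUM, PECAM1, CDH5 and KDR were under 1 TPM in every library. Other markers of these cell types were detected, with CD68 at 1.97 to 66.7 TPM and COL1A1, CD14, PDGFRB and VWF at up to 17.6, 4.85, 2.15 and 2.03 TPM. In HCT116 OX res, where the replication genes fell most, the summed leukocyte markers were at 55.5 to 67.1 TPM against 14.5 to 16.4 in WT and the summed fibroblast markers at 15.1 to 17.7 against 6.20 to 6.96, and their part in the results was not tested. In TPM, among the SW480 WT libraries, the second was the lowest for 37 of the 43 genes, and the first was the highest for 31, and in DLD-1 5-FU res the third library was the lowest for 35. Ribosomal protein genes took 12.0 to 26.0% of the TPM of a library. Changes are given as differences of log2(TPM + 1) after each library was centred on its median tested gene, a gene was called when its Benjamini-Hochberg adjusted p over all genes tested was under 0.05, and SE is the standard error of a change. Centring mattered because the median gene itself moved on the TPM scale, by 0.18 and 0.60 (log2) in 5-FU res and OX res of HCT116, by 0.44 and 0.36 in SW480 and by -0.027 and 0.13 in DLD-1. After centring, the median of the 43 genes relative to the WT mean was -0.032 in the second SW480 WT library, against 0.0022 and 0.015. In DLD-1 5-FU res it was -0.40 in the third library, above the -0.42 and -0.46 of the first and second.

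As a group, the replication genes were lower relative to the median gene in both HCT116 resistant cultures and in DLD-1 5-FU res, and higher in DLD-1 OX res. In SW480 they were lower relative to the median gene in both resistant cultures, but on the TPM scale as computed the median change was 0.15 in 5-FU res, a change of sign, and -0.045 in OX res. The median over all genes tested was 0.44 and 0.36 on that scale. The 43 genes together made up 0.336% ± 0.0049 of all TPM in HCT116 WT, 0.236% ± 0.00070 in 5-FU res, and 0.153% ± 0.00044 for OX res (SD, n = 3). In SW480 the share was 0.471% ± 0.021, 0.428% ± 0.0055 and 0.390% ± 0.0076, and in DLD-1 0.302% ± 0.0028, 0.220% ± 0.0090 and 0.410% ± 0.0088, in the same order. Within each line the 3 groups of libraries did not overlap in this share. DLD-1 OX res was the only resistant group in which it exceeded that of its WT.

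**Figure D1:**
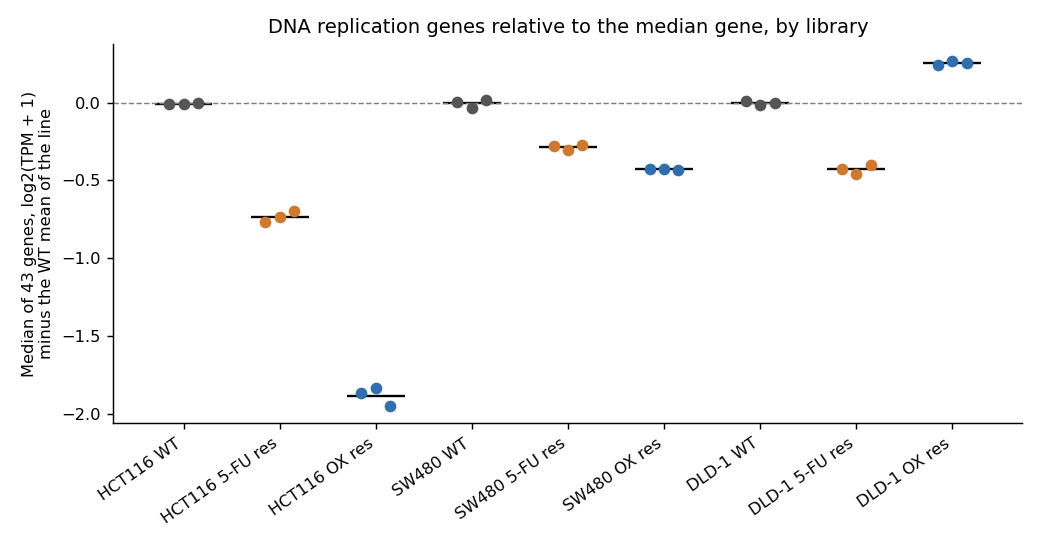
Median over the 43 replication genes of log2(TPM + 1) relative to the median gene, minus the mean of the WT libraries of the line (vertical axis, log2), for each library (points) in the 9 groups, with the group mean as a bar. The 3 HCT116 OX res libraries lie between -1.95 and -1.84, the SW480 OX res libraries all at -0.43, and the DLD-1 OX res libraries between 0.24 and 0.27.

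In HCT116 5-FU res, 37 genes were lower and 4 higher than in WT, where 39.1% of all 14010 genes tested were called lower and 36% higher, and the median change of the 43 was -0.73. In HCT116 OX res, 41 were lower and 2 higher against 38.2% of genes called lower and 39.5% higher, with a median of -1.89, and 34 of the 43 also fell by more than 1 on the log2 scale, which 12.5% of all genes did. In SW480 5-FU res 28 were lower and 6 higher (background 34.7% lower and 34.5% higher), with a median of -0.29, whereas without centring 12 were lower and 19 higher. In SW480 OX res 30 were lower and 2 higher (background 34.2% lower and 33% higher), with a median of -0.42, and without centring 17 were lower and 12 higher. In DLD-1 5-FU res 37 were lower and 1 higher (background 25.4% lower and 24.9% higher), with a median of -0.43. In DLD-1 OX res 0 were lower and 37 higher (background 22.2% lower and 24.2% higher), with a median of 0.27, and these 37 and 5 more were called higher without centring. The median over all genes tested lay between -0.029 and 0.026 in these 6 comparisons. Changes past 1 on the log2 scale were otherwise few, with 8 genes lower in HCT116 5-FU res (background 6.79%), 3 in SW480 5-FU res (7.44%), 3 in SW480 OX res (3.85%), 1 in DLD-1 5-FU res (1.63%) and 0 higher in DLD-1 OX res (1.99%). The 2 comparisons of a line share its WT libraries. Without centring the median over all genes tested was 0.44 (quartiles 0.0088 and 0.85) in SW480 5-FU res, against 0.15 for the 43. It was 0.36 in SW480 OX res, against -0.045 for the 43, and 0.13 in DLD-1 OX res, against 0.41. Shares of all genes called without centring are not given here.

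**Figure D2:**
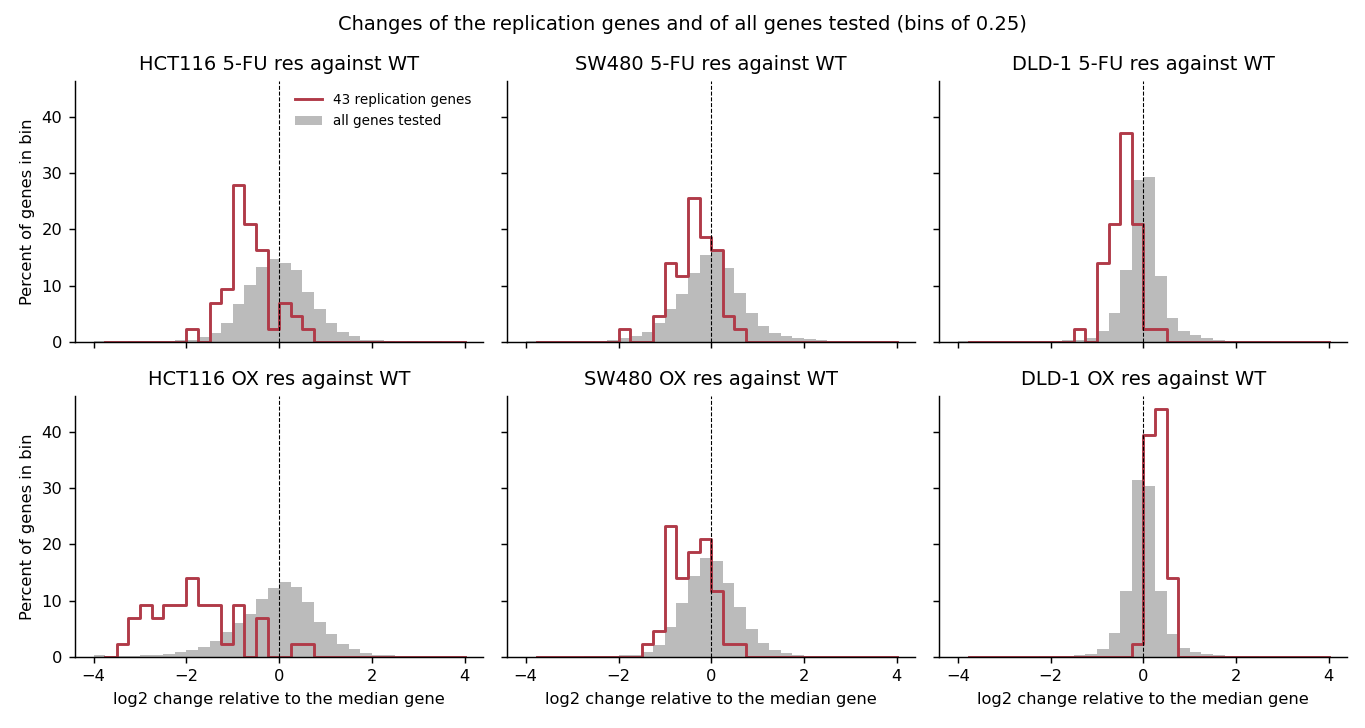
Distribution of log2 changes against WT relative to the median gene (horizontal axis) for the 43 replication genes (red line) and all genes tested (grey bars), as percent of genes in bins 0.25 wide (vertical axis), for the 6 resistant cultures. The red line is displaced to the left of the grey bars by most in HCT116 OX res, where its median is -1.89, and to the right in DLD-1 OX res, where it is 0.27.

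The proliferation antigen gene MKI67 followed the order of the summed share in DLD-1 but not in HCT116 and SW480. Its mean was 58.3 ± 2.17 TPM in HCT116 WT, 85.8 ± 10.8 in 5-FU res, and 17.5 ± 2.88 for OX res (SD, n = 3). In SW480 it was 67.7 ± 13.6, 107 ± 2.31 and 113 ± 3.45 TPM, and in DLD-1 117 ± 5.32, 67.7 ± 4.77 and 176 ± 14.4 TPM. On the TPM scale MKI67 was thus above WT in every library of HCT116 5-FU res and of both SW480 resistant cultures, while the summed share of the 43 genes, on the same scale, was below WT in each. The sum is weighted towards abundant genes. In SW480 5-FU res 19 of the 43 were called higher and 12 lower on that scale, and MCM7, PCNA and POLD2 were among the 12. In SW480 OX res 12 were called higher and 17 lower. Most genes rose on that scale, with a median over all genes tested of 0.44 (quartiles 0.0088 and 0.85) in 5-FU res and 0.36 in OX res. The medians of the 43 were 0.15 and -0.045, so these counts show no rise of the 43 beyond that of other genes. The share of TPM in ribosomal protein genes was 22.5% ± 0.59 in HCT116 WT, 24.7% ± 1.09 in 5-FU res, and 12.6% ± 0.51 for OX res (SD, n = 3). For SW480 it was 22.0% ± 0.69, 14.4% ± 0.034 and 16.7% ± 0.23, and for DLD-1 20.0% ± 0.32, 18.9% ± 0.92 and 15.2% ± 0.40, in the same order. The median gene had risen most on the TPM scale where this share was furthest below WT, in HCT116 OX res and in SW480, and its part in the changes on the TPM scale was not tested.

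The MCM2-7 helicase, the ring that unwinds DNA at the fork, was lower for all 6 subunits in both HCT116 cultures and in DLD-1 5-FU res, and higher for all 6 in DLD-1 OX res, although MCM7 in HCT116 5-FU res was only -0.11 under quantile normalization and no longer passed (adjusted p = 0.052). All 6 were also lower in SW480 OX res relative to the median gene, from -0.96 (MCM2) to -0.19 (MCM4), and 2 of them, MCM2 and MCM7, stayed lower without centring. MCM7, the most abundant subunit, stood at 316, 304 and 302 TPM in the HCT116 WT libraries, at 239, 228 and 222 in 5-FU res, and at 56.4, 54.8 and 56.5 in OX res. In SW480 it stood at 594, 593 and 623 TPM in WT, at 508, 504 and 526 in 5-FU res and at 435, 447 and 447 in OX res. The DLD-1 values were 256, 265 and 259 TPM in WT, 192, 191 and 183 in 5-FU res, and 462, 469 and 427 in OX res. The groups of libraries did not overlap within any of the lines, and relative to the median gene MCM7 changed by -3.01 (SE 0.0485, adjusted p = 4.9e-12) in HCT116 OX res and by 0.66 (SE 0.0319, adjusted p = 8.7e-08) in DLD-1 OX res. The gene lies at hg19 chr7:99689856-99699563 on the minus strand. The other 5 subunits changed by -2.76 to -2.08 in HCT116 OX res and by 0.13 to 0.34 in DLD-1 OX res.

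MCM2, at hg19 chr3:127317253-127341279 on the plus strand, departed from the rest of the ring in SW480 5-FU res. It stood at 187, 162 and 189 TPM in SW480 WT, at 66.6, 68.2 and 66.0 in 5-FU res and at 109, 125 and 125 in OX res, with no overlap between groups. Its change in SW480 5-FU res was -1.84 (SE 0.0593, adjusted p = 1.9e-09), and it was -1.41 without centring. The other 5 subunits changed there by -0.67 to -0.08, and MCM4 (-0.09, adjusted p = 0.17) and MCM6 (-0.08, adjusted p = 0.19) did not pass the test. Without centring MCM3, MCM4 and MCM6 were higher in SW480 5-FU res, by 0.16, 0.34 and 0.35, while MCM2 and MCM7 stayed lower. In HCT116 5-FU res the deepest fall was that of MCM3 (-1.04) and the shallowest that of MCM4 (-0.37), while MCM2 changed by -0.77.

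**Figure D3:**
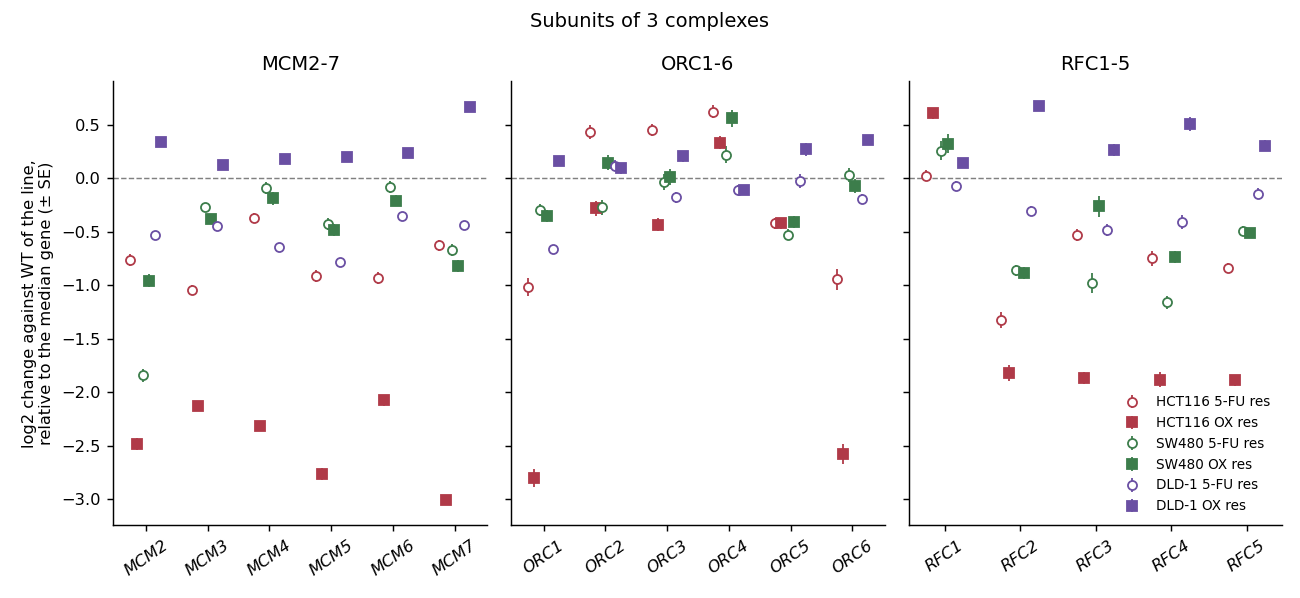
Changes of the subunits of MCM2-7, ORC1-6 and RFC1-5 against WT of the same line (vertical axis, log2, relative to the median gene, with SE bars) in the 6 resistant cultures, circles for 5-FU res and squares for OX res, coloured by line. In HCT116 OX res all MCM subunits lie between -3.01 and -2.08, whereas ORC1 (-2.80) and ORC6 (-2.58) stand apart from ORC2 to ORC5 (-0.43 to 0.33), and RFC1 (0.61) from RFC2 to RFC5 (-1.89 to -1.82).

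The origin recognition complex split into subunits that moved with the helicase and subunits that did not. In HCT116 OX res ORC1, an ATPase subunit, fell by 2.80 and ORC6 fell by 2.58 on the log2 scale. ORC2, ORC3 and ORC5 changed by -0.28, -0.43 and -0.42 there, called lower relative to the median gene but called higher on the TPM scale as computed, by 0.29, 0.14 and 0.15. ORC4 rose by 0.33, and by 0.90 without centring. ORC1 stood at 27.4, 25.1 and 27.8 TPM in HCT116 WT and at 4.97, 5.20 and 4.56 in OX res. ORC4 stood at 11.6, 12.1 and 11.8 TPM in HCT116 WT, at 22.9, 20.0 and 23.0 in 5-FU res and at 22.4, 23.0 and 23.8 in OX res, so that both resistant groups lay above WT. In SW480 ORC4 rose in 5-FU res (0.22, adjusted p = 0.028) and OX res (0.56, adjusted p = 1.1e-04), and in DLD-1 it passed the test in neither (-0.11 in both, adjusted p = 0.070 and 0.081). ORC2 and ORC3 were called higher in HCT116 5-FU res, by 0.43 and 0.45. In DLD-1 OX res ORC1, ORC3, ORC5 and ORC6 rose by 0.16 to 0.36, and ORC2 (0.09) and ORC4 did not pass.

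CDT1, which brings the helicase to the origin, and CDC6, the ATPase that works beside it, both fell in HCT116 OX res, by 3.08 and 2.44 on the log2 scale. CDT1 (hg19 chr16:88870197-88875666, plus strand) stood at 84.6, 84.6 and 81.4 TPM in HCT116 WT, at 63.7, 53.3 and 50.5 in 5-FU res and at 15.3, 12.4 and 13.8 in OX res. It changed by -0.79 in 5-FU res and by -3.08 (SE 0.0849, adjusted p = 1.4e-10) in OX res, and the 3 groups did not overlap. In SW480 it stood at 52.5, 49.8 and 49.4 TPM in WT, at 38.2, 43.8 and 46.8 in 5-FU res and at 28.0, 32.9 and 30.4 in OX res, and changed by -0.67 and -1.09. In DLD-1 OX res it was 33.5, 32.8 and 32.1 TPM against 29.2, 28.0 and 28.2 in WT, and its relative change of 0.06 (adjusted p = 0.36) did not pass the test. CDC6 stood at 67.9, 74.3 and 72.0 TPM in HCT116 WT, at 48.4, 44.7 and 49.8 in 5-FU res and at 19.2, 18.6 and 18.8 in OX res. CDC6 in DLD-1 stood at 50.5, 52.1 and 57.5 TPM in WT, at 62.7, 67.1 and 59.3 in 5-FU res and at 91.8, 88.2 and 88.1 in OX res, and it was the 1 member called higher in DLD-1 5-FU res (0.26, adjusted p = 0.0017). In SW480 CDC6 stood at 139, 108 and 121 TPM in WT, at 128, 132 and 123 in 5-FU res and at 129, 125 and 137 in OX res, which overlapped, and its relative changes of -0.37 and -0.28 changed sign to 0.062 and 0.098 without centring.

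GMNN, the inhibitor of CDT1, fell by 1.22 in HCT116 5-FU res and by 2.23 in HCT116 OX res on the log2 scale. The log2 ratio of CDT1 to GMNN, a value within each library that no scaling of libraries alters, had a mean of 0.20 ± 0.056 in HCT116 WT, 0.65 ± 0.36 in 5-FU res, and -0.69 ± 0.31 for OX res (SD, n = 3). In 5-FU res the 3 libraries were at 1.06, 0.41 and 0.47, all above the WT values of 0.22, 0.14 and 0.25. In OX res they were at -0.32, -0.87 and -0.86, all below WT. In SW480 the means were -0.85 ± 0.096, -0.86 ± 0.15 and -1.06 ± 0.30 in WT, 5-FU res and OX res, and in DLD-1 they were -0.39 ± 0.22, -0.54 ± 0.12 and -0.61 ± 0.064, and in both lines the 3 groups of libraries overlapped. The ratio was not tested.

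The genes that activate the helicase held the largest change against WT among the 43. GINS2, a subunit of the GINS complex at hg19 chr16:85709804-85723679 on the minus strand, stood at 145, 158 and 144 TPM in HCT116 WT, at 49.3, 46.4 and 51.7 in 5-FU res and at 20.0, 17.8 and 19.1 in OX res. It changed by -1.79 (SE 0.0574, adjusted p = 1.6e-09) and by -3.48 (SE 0.0574, adjusted p = 4.9e-12), the largest fall of each comparison among the 43, and the groups did not overlap. In SW480 GINS2 was at 135, 139 and 142 TPM in WT, at 119, 115 and 118 in 5-FU res and at 80.7, 84.7 and 77.9 in OX res. In DLD-1 it was at 72.5, 73.8 and 73.0 TPM in WT, at 38.3, 38.9 and 41.2 in 5-FU res and at 106, 98.1 and 102 in OX res. GINS2 was therefore the lowest in OX res in HCT116 and SW480 and the highest in OX res in DLD-1.

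CDC45, which binds GINS and MCM2-7 in the active helicase, stood at 41.1, 42.5 and 42.1 TPM in HCT116 WT, at 27.6, 28.2 and 24.0 in 5-FU res and at 7.74, 5.97 and 6.23 in OX res. Its change in HCT116 OX res was -3.07 (SE 0.0936, adjusted p = 2.6e-10). In DLD-1 OX res it was 69.3, 74.0 and 66.0 TPM against 41.5, 40.0 and 38.2 in WT, a rise of 0.66 (SE 0.0506, adjusted p = 2.6e-06). MCM10, a scaffold of the starting fork, fell by 2.86 in HCT116 OX res on the log2 scale. The 4 GINS subunits were unequal there, since GINS3 changed by -2.06, GINS1 by -1.26 and GINS4 by -1.08. GINS1 fell by 0.86 in DLD-1 5-FU res, from 39.9, 40.5 and 41.6 TPM in WT to 21.7, 22.5 and 20.5, which was the third largest change of that comparison. In SW480 5-FU res only GINS2 (-0.67) and MCM10 (-0.21) of these 6 genes were called lower, GINS3 was called higher (0.24), and CDC45, GINS1 and GINS4 did not pass, while without centring GINS2 alone stayed lower and the other 5 were called higher.

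Polymerase alpha-primase, which starts every new strand, fell for all 4 genes in HCT116 OX res and DLD-1 5-FU res, and for all 4 in SW480 5-FU res relative to the median gene, where POLA2 and PRIM1 alone stayed lower without centring. PRIM1, the catalytic primase subunit, stood at 63.1, 71.9 and 70.9 TPM in HCT116 WT, at 53.6, 55.0 and 55.7 in 5-FU res and at 15.9, 17.7 and 16.9 in OX res, and changed by -0.53 and -2.54. PRIM1 in DLD-1 stood at 55.2, 49.2 and 57.1 TPM in WT, at 25.1, 32.8 and 24.4 in 5-FU res and at 65.6, 64.5 and 68.6 in OX res. The fall of 0.93 (log2) in DLD-1 5-FU res passed the test (adjusted p = 1.4e-05), and the value of 0.16 in OX res did not (adjusted p = 0.17) although the libraries did not overlap with WT. In SW480 PRIM1 stood at 109, 84.9 and 104 TPM in WT, at 69.1, 75.6 and 74.9 in 5-FU res and at 74.7, 65.3 and 70.3 in OX res, lower than WT in every resistant library. POLA1, the polymerase subunit, did not pass the test in HCT116 5-FU res (0.06, adjusted p = 0.44), and POLA2, its partner, rose by 0.54 in DLD-1 OX res.

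Of the polymerases that copy the bulk of the genome, POLD2, an accessory subunit of polymerase delta, was among the 3 largest changes of both SW480 cultures. It stood at 425, 469 and 457 TPM in SW480 WT, at 271, 280 and 279 in 5-FU res and at 235, 251 and 236 in OX res. Its changes were -1.13 (SE 0.076, adjusted p = 3.4e-07) and -1.27 (SE 0.076, adjusted p = 3.6e-07), and it stayed lower without centring, by 0.70 and 0.90. In HCT116 POLD2 stood at 279, 272 and 279 TPM in WT, at 242, 241 and 227 in 5-FU res and at 146, 140 and 143 in OX res, and its change of -0.44 in 5-FU res became 0.081 under quantile normalization. In DLD-1 it stood at 261, 283 and 283 TPM in WT, at 236, 241 and 245 in 5-FU res and at 309, 312 and 294 in OX res, and only the 5-FU res change passed (-0.17, adjusted p = 0.0058). POLE, the catalytic subunit of polymerase epsilon, went against its partner POLE2 in HCT116 5-FU res, where POLE was called higher (0.19, adjusted p = 0.010) and POLE2 fell by 1.15 on the log2 scale. POLE also rose by 0.50 in SW480 5-FU res, while POLE2 did not pass there (0.01, adjusted p = 0.91). In HCT116 OX res both fell, by 1.67 and 2.75. POLD1 and POLD3 changed by -1.95 and -0.77 in HCT116 OX res and rose by 0.33 and 0.40 in DLD-1 OX res.

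PCNA, the sliding clamp that ties polymerases to DNA, was about as low in OX res as in 5-FU res of HCT116 relative to the median gene. It stood at 388, 435 and 429 TPM in HCT116 WT, at 282, 318 and 302 in 5-FU res and at 370, 388 and 340 in OX res. On the TPM scale the highest OX res library reached the lowest WT library, so that these groups overlapped, and 5-FU res lay below both. Relative to the median gene PCNA changed by -0.68 in 5-FU res and -0.76 in OX res, the latter the smallest fall outside the ORC subunits in that comparison, and it was -0.19 without centring and -0.11 under quantile normalization, where it no longer passed. In SW480 PCNA stood at 628, 592 and 595 TPM in WT, at 424, 434 and 409 in 5-FU res and at 423, 393 and 435 in OX res, with changes of -0.95 and -0.91 that stayed lower without centring. In DLD-1 it stood at 358, 347 and 329 TPM in WT, at 219, 222 and 181 in 5-FU res and at 472, 426 and 427 in OX res.

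The clamp loader RFC also split. RFC2, a small subunit, stood at 101, 93.0 and 99.3 TPM in HCT116 WT, at 39.4, 46.4 and 48.1 in 5-FU res and at 39.5, 39.9 and 42.2 in OX res, and fell by 1.33 and 1.82 on the log2 scale, the resistant groups overlapping in TPM. RFC2 in DLD-1 was 58.6, 56.5 and 51.7 TPM in WT, 44.6, 45.0 and 42.0 in 5-FU res, and 98.8, 100 and 95.0 in OX res, where its rise of 0.68 (SE 0.0452, adjusted p = 9.5e-07) was the largest of the 43. RFC4 fell by 1.16 in SW480 5-FU res (SE 0.0585, adjusted p = 4.2e-08), from 179, 161 and 167 TPM in WT to 102, 108 and 95.2. RFC1, the large subunit, was called lower in none of the 6 cultures. It stood at 24.6, 23.9 and 25.4 TPM in HCT116 WT, a mean of 29.2 ± 1.93 in 5-FU res (SD, n = 3) and 55.6, 55.1 and 60.6 in OX res, and its rise of 0.61 in OX res was 1.18 without centring. RFC3 and RFC5 fell by 1.86 and 1.89 in HCT116 OX res, beside RFC4 (-1.89).

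Single-strand binding and Okazaki fragment genes fell together in HCT116, all 5 in both cultures. FEN1, the flap nuclease, stood at 161, 162 and 166 TPM in HCT116 WT, at 64.3, 67.6 and 67.5 in 5-FU res and at 46.1, 47.5 and 46.5 in OX res. Its changes of -1.49 (SE 0.0527, adjusted p = 2.8e-09) and -2.35 (SE 0.0527, adjusted p = 3.6e-11) were those of groups that did not overlap. In SW480 FEN1 stood at 209, 205 and 211 TPM in WT, at 222, 230 and 228 in 5-FU res and at 133, 139 and 136 in OX res, so that it was above WT in every 5-FU res library on the TPM scale, while its relative change was -0.31, which became 0.12 without centring and 0.10 under quantile normalization. In OX res it fell by 0.99 on the log2 scale. In DLD-1 FEN1 stood at 97.7, 96.1 and 97.4 TPM in WT, at 56.2, 56.0 and 55.3 in 5-FU res and at 150, 136 and 138 in OX res. RPA1 and RPA2, the larger RPA subunits, fell by 0.88 and 0.94 in HCT116 OX res, less than RPA3 (-1.74), and LIG1, the ligase, by 1.33. In SW480 OX res RPA1 (0.06, adjusted p = 0.24) and RPA2 (-0.01, adjusted p = 0.85) did not pass the test.

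**Figure D4:**
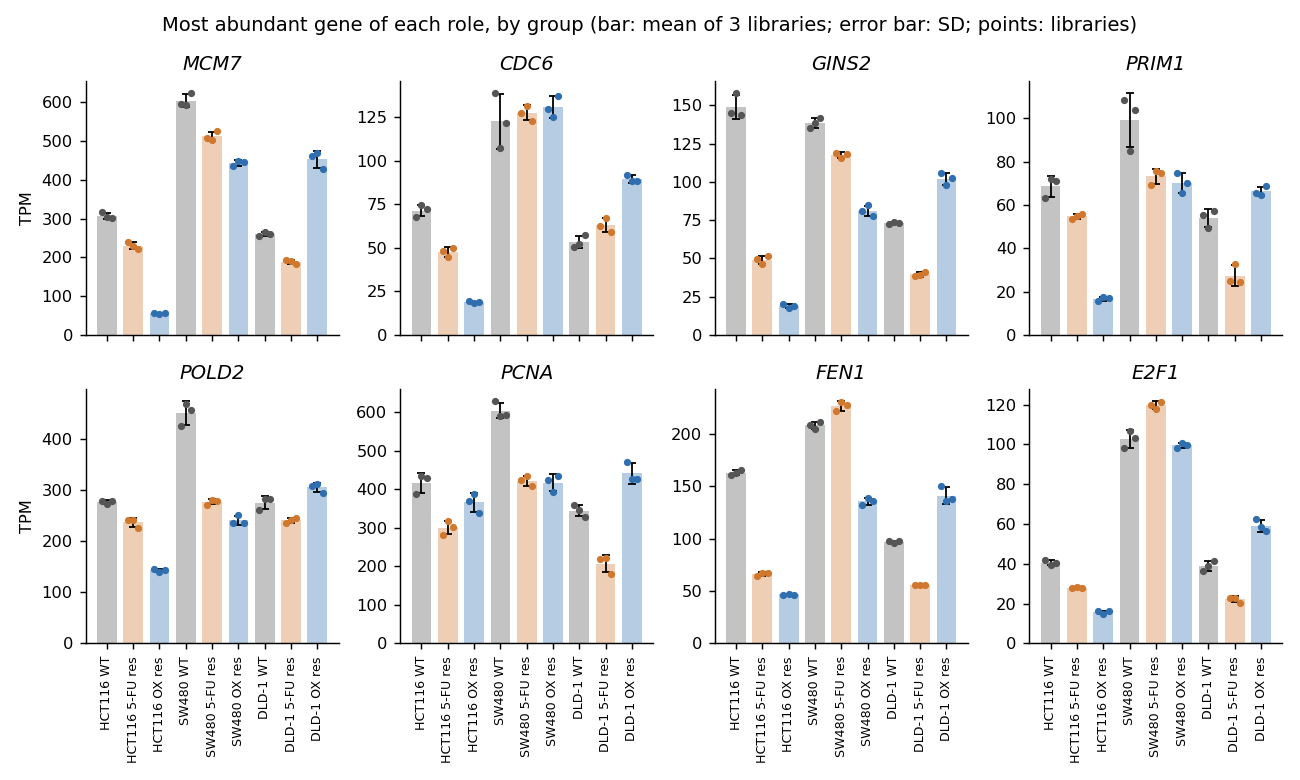
TPM (vertical axis, linear from 0) of the most abundant gene of each role in the 9 groups, as the mean of 3 libraries (bar) with SD (error bar) and the libraries (points). MCM7, CDC6, GINS2, PRIM1, POLD2, FEN1 and E2F1 are lowest in HCT116 OX res, whereas PCNA in HCT116 OX res (340 to 388 TPM) reaches the range of WT (388 to 435 TPM).

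The E2F factors, activators of many of these genes, were themselves members. E2F1 stood at 41.8, 39.3 and 40.4 TPM in HCT116 WT, at 27.6, 28.1 and 27.8 in 5-FU res and at 16.2, 14.8 and 16.1 in OX res, and changed by -0.73 and -1.89. In SW480 it stood at 98.2, 107 and 103 TPM in WT, at 120, 118 and 121 in 5-FU res and at 98.1, 101 and 99.9 in OX res. Its relative change in SW480 5-FU res was -0.22 (adjusted p = 0.021), but 0.22 without centring and 0.061 under quantile normalization, so that its direction depended on the scaling. In DLD-1 E2F1 stood at 36.1, 38.9 and 41.5 TPM in WT, at 22.9, 23.0 and 20.5 in 5-FU res and at 62.3, 58.7 and 56.2 in OX res. E2F2, at hg19 chr1:23832930-23857725 on the minus strand, stood at 13.4, 13.6 and 15.8 TPM in HCT116 WT, at 9.89, 9.11 and 9.97 in 5-FU res and at 2.26, 1.90 and 2.63 in OX res. In DLD-1 it stood at 11.0, 11.9 and 11.5 TPM in WT, at 3.86, 3.63 and 3.46 in 5-FU res and at 16.3, 16.4 and 16.6 in OX res, and its fall of 1.40 in 5-FU res (SE 0.0625, adjusted p = 4.0e-08) was the 1 change past 1 in DLD-1. In SW480 it stood at 6.70, 5.50 and 6.57 TPM in WT, at 14.9, 16.1 and 15.1 in 5-FU res and at 8.78, 8.97 and 8.54 in OX res. E2F2 was thus called higher in SW480 5-FU res (0.74, adjusted p = 3.7e-06), with and without centring, where it was the largest rise of the 43.

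**Figure D5:**
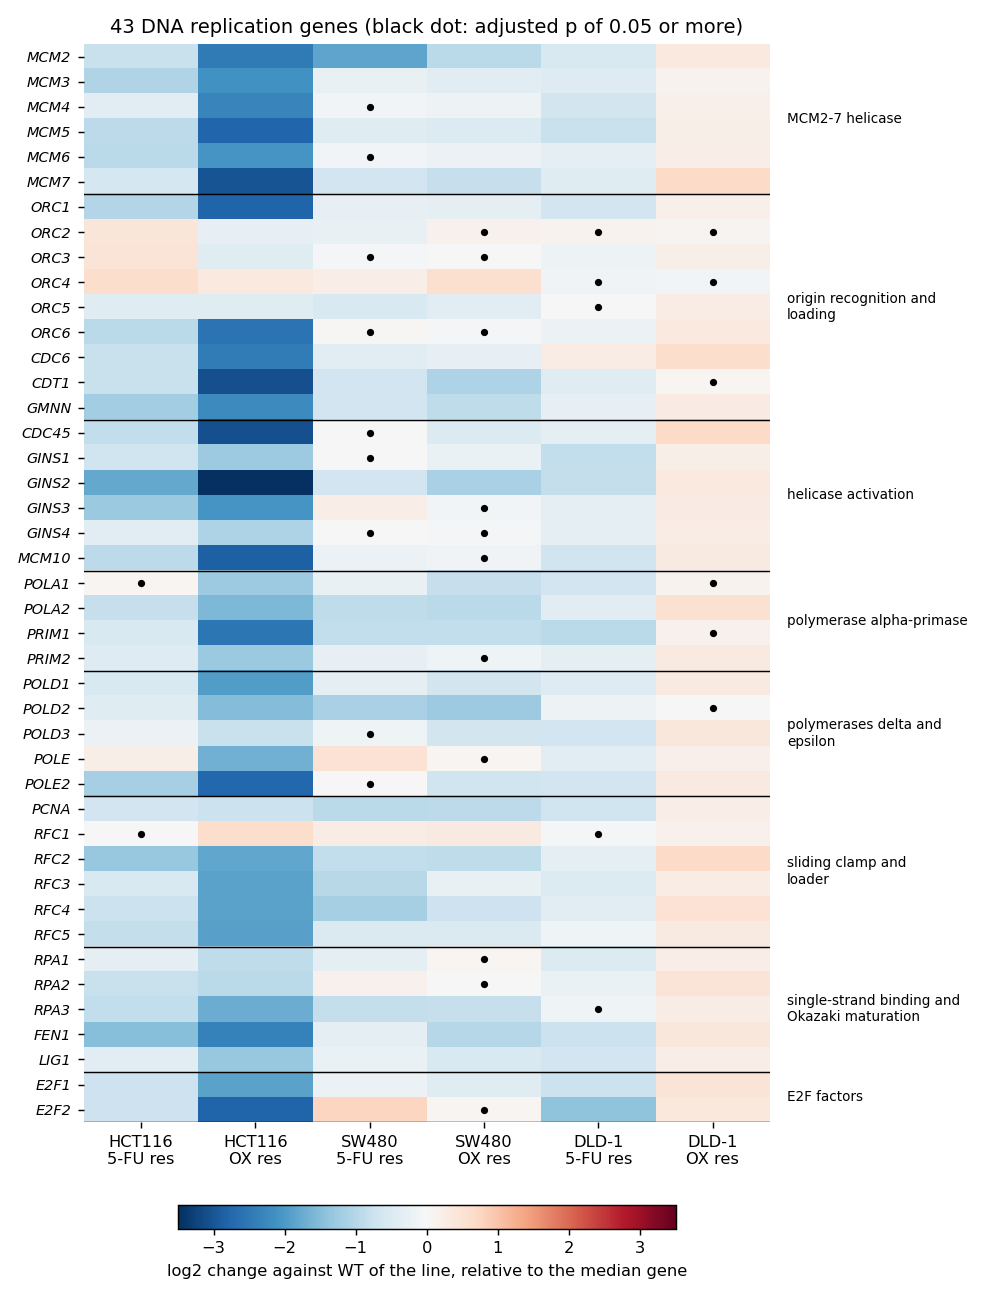
Log2 change of each of the 43 genes (rows, in 8 roles) against WT of its line relative to the median gene (colour, blue lower and red higher) in the 6 resistant cultures (columns), with a black dot where the adjusted p was 0.05 or more. HCT116 OX res is blue for 41 genes, DLD-1 OX res is red without a dot for 37, and ORC4 and RFC1 are in no column blue without a dot.

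Across the 6 comparisons with WT, 20 of the 43 genes were called lower in all 5 other than DLD-1 OX res, and 17 of these 20 were called higher in DLD-1 OX res, the exceptions being CDT1, PRIM1 and POLD2, which were called higher there without centring. Of the 12114 genes tested in all 3 lines, 4.61% were called lower in all 5 and 1.41% were also called higher in DLD-1 OX res. ORC4 and RFC1 were called lower in none, and ORC2, ORC3 and POLE in 1 or 2. The 2 comparisons of each line share WT libraries, and the SW480 calls depend on the centring as given above. Genes with and without an E2F-type word in the promoter were set side by side in each culture. In HCT116 OX res the 19 with a word had a median change of -2.06 (range -3.48 to -0.43) and the 18 without had a median of -1.89 (range -3.07 to 0.61). The medians with and without a word were -0.73 and -0.64 in HCT116 5-FU res. For SW480 they were -0.25 and -0.32 under 5-FU resistance and -0.42 and -0.45 under OX resistance. In DLD-1 5-FU res they were -0.48 and -0.32, and in DLD-1 OX res 0.26 and 0.29. CDT1, GINS2 and MCM7 held a word and fell by over 3 in HCT116 OX res, and PCNA held a word and fell by 0.76. CDC45 held no exact word and fell by 3.07, but the near form tttggcggg stood upstream of its start. Genes counted as without a word can thus hold near forms, and the split is by exact letters only.

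Direct comparison of the resistant cultures asked whether the replication genes differed between the drugs within a line. In HCT116, 40 of the 43 were lower and 1 (RFC1) higher in OX res than in 5-FU res, where 38.7% of all genes were called lower and 36.4% higher, with a median of -1.09, and 25 fell by more than 1 against 9.81% of genes. MCM7 (-2.38), CDT1 (-2.29) and CDC45 (-2.22) led, while ORC5 and PCNA did not pass. In DLD-1 the order was the opposite, since 41 were higher in OX res than in 5-FU res and 0 lower (background 31.7% higher and 31.2% lower), with a median of 0.79, and 9 rose by more than 1 (background 4.1%). E2F2 (1.75), E2F1 (1.22), GINS2 (1.19) and FEN1 (1.16) rose most, and ORC2 and ORC4 did not pass. In SW480 the cultures differed less, with 18 lower and 6 higher in OX res (background 31.6% lower and 33.6% higher), 19 not passing and a median of -0.094. POLE2 (-0.71), E2F2 (-0.68) and FEN1 (-0.67) were lower in SW480 OX res than in 5-FU res, and MCM2 (0.89) and RFC3 (0.72) were higher.

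Whether the effect of resistance differed between lines was tested by interaction terms over all 27 libraries. For OX res, all 43 genes differed between HCT116 and DLD-1, 41 with a more negative change in HCT116 (background 33.1%) and 2, ORC4 and RFC1, with a more positive one (background 36%), at a median difference of -2.20. GINS2 (-3.74) and CDC45 (-3.64) differed most. Between HCT116 and SW480, 37 were more negative in HCT116 and 1, RFC1, more positive (background 31.8% each way), with E2F2 (-2.80) and MCM10 (-2.66) at the front and ORC4, ORC5, PCNA, POLD2 and POLD3 not passing. Between SW480 and DLD-1, 38 were more negative in SW480 (background 29.8%) and 1, ORC4, more positive (background 30.3%), with RFC2 (-1.54) and POLA2 (-1.47) differing most. Without centring 39, 34 and 27 were more negative in these 3 comparisons.

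The 5-FU effect differed between lines for most members but without a shared direction. Between HCT116 and SW480, 23 genes were more negative in HCT116 (background 32.5%) and 10 more positive (background 32%), and GINS3 (-1.56) and E2F2 (-1.48) differed most. All 6 helicase activation genes were among the 23. Between HCT116 and DLD-1, 22 were more negative (background 32.4%) and 12 more positive (background 31.7%), with a median of -0.17 that became 0.022 without centring and 0.039 under quantile normalization. CDC6 (-1.01) and RFC2 (-0.98) differed most. Between SW480 and DLD-1, 12 were more negative in SW480 (background 31%) and 24 more positive (background 32.5%), with E2F2 (2.19) and MCM2 (-1.26) at the extremes, whereas without centring 3 were more negative and 29 more positive.

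The untreated lines already differed. Relative to the median gene, 28 of the 43 genes were lower and 9 higher in HCT116 WT than in SW480 WT (background 38.2% each way), 7 were lower and 29 higher in HCT116 than in DLD-1 (background 39% and 43.1%), and 5 were lower and 32 higher in SW480 than in DLD-1 (background 39.5% and 42.5%). Without centring the HCT116 and DLD-1 comparison held 17 genes each way and the median went from 0.36 to -0.011, and the SW480 and DLD-1 comparison held 12 lower and 24 higher. RFC2 stood highest in SW480 WT and differed from DLD-1 WT by 2.00 (log2), and POLA2 was lower by 1.53 in HCT116 than in SW480. CDT1 was higher in HCT116 than in DLD-1 by 1.89, whereas ORC4 was lower by 1.31. E2F1 and E2F2 went in opposite directions between HCT116 and SW480, with E2F1 lower in HCT116 by 1.33 and E2F2 higher by 1.07. Hence SW480 cells had more E2F1 and less E2F2 than HCT116 before any drug.

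Genes that act beside the 43 were counted from 2 further lists. Of 30 other fork and origin-firing genes, 29 were called lower and 1 higher in HCT116 OX res (median -1.52), 19 and 4 in HCT116 5-FU res (18 and 9 without centring), 21 and 1 in DLD-1 5-FU res, and 4 and 18 in DLD-1 OX res (median 0.22). As shares of 30 these were 96.7% lower in HCT116 OX res, 63.3% in HCT116 5-FU res and 70.0% in DLD-1 5-FU res, and 60.0% higher in DLD-1 OX res, against 38.2%, 39.1%, 25.4% and 24.2% of all genes. In SW480 13 were lower and 6 higher in 5-FU res and 14 and 5 in OX res, but without centring 5 and 17, and 6 and 13. On that scale the medians of the 30 were 0.34 and 0.21, beside 0.44 and 0.36 for all genes tested. The centred shares of 43.3% and 46.7% lower lay near the 34.7% and 34.2% of all genes. DSCC1, a subunit of an alternative clamp loader, stood at 34.5 ± 3.06 TPM in HCT116 WT and 4.51 ± 0.63 in OX res (SD, n = 3), a change of -3.26, and the helicase gene RECQL4 changed by -2.76. In SW480 5-FU res RNASEH2B, a subunit of ribonuclease H2, changed by -1.51, and TOPBP1, which helps to fire origins, by -1.38. In DLD-1 5-FU res the histone chaperone gene ASF1B changed by -0.83 and WDHD1, which links polymerase alpha to the fork, by -0.73.

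Of 21 genes of E2F and RB family control, 14 were lower and 4 higher in HCT116 OX res (11 and 8 without centring), 8 and 8 in HCT116 5-FU res (8 and 11 without centring), 13 and 5 in DLD-1 5-FU res and 4 and 13 in DLD-1 OX res. In SW480 the counts were 9 and 7 in 5-FU res and 9 and 4 in OX res, and 2 and 12, and 3 and 12, without centring. Without centring the medians of the 21 were 0.33 and 0.26, beside 0.44 and 0.36 for all genes tested. The shares lower of 38.1% in HCT116 5-FU res and 42.9% in each SW480 culture lay near the background of 39.1%, 34.7% and 34.2%, while 66.7% in HCT116 OX res, 61.9% in DLD-1 5-FU res and 61.9% higher in DLD-1 OX res stood beside 38.2%, 25.4% and 24.2% of all genes. Cyclin A2 (CCNA2) and MYBL2 changed by -2.92 and -2.86 in HCT116 OX res. E2F8, a repressor of the family, changed by -1.32 in DLD-1 5-FU res, and SKP2, an F-box protein that marks CDK inhibitors for destruction, by -1.20 in SW480 5-FU res. CDKN1A, the CDK inhibitor p21, rose in all 6 cultures. It stood at 401 ± 7.87 TPM in HCT116 WT, 752 ± 8.75 in 5-FU res, and 1562 ± 73.7 for OX res (SD, n = 3). In SW480 it was 75.7 ± 2.65, 226 ± 12.4 and 140 ± 4.72 TPM, and in DLD-1 26.6 ± 1.08, 54.6 ± 1.79 and 82.6 ± 3.22 TPM, in the same order. CDKN1A was thus highest in OX res in HCT116 and DLD-1, and in 5-FU res in SW480. Its change in DLD-1 OX res was 1.46, but its 82.6 TPM there lay below the 401 TPM of HCT116 WT. Whether CDKN1A had a part in the changes of the replication genes was not tested.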

How the data were processed

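The 27 RNA libraries (3 lines, 3 groups, 3 libraries each) were prepared with a stranded mRNA kit and read as 100-base single reads. The deposited values are FPKM, made by the authors with Trimmomatic 0.38, TopHat2 2.1.1 (hg19) and Cufflinks 2.2.1. The submitters' processing notes name Cuffdiff 2.2.1, while the sources used here name neither annotation nor strand setting. The authors rescaled FPKM to TPM, and here TPM was FPKM divided by the library sum. Genes with TPM of at least 1 in 3 libraries were tested with limma 3.58.1 (lmFit, eBayes with trend, R 4.3.3) on log2(TPM + 1), each library centred on its median tested gene, over 9 libraries of a line or all 27 for WT and interaction contrasts. The pseudocount of 1 understates changes of low genes. The fit was tested on simulated data. Benjamini-Hochberg adjusted p under 0.05 gave a call. Depth is known only relatively, so no counting intervals were given. Values per library were named for the 3 largest called changes per resistant culture and the most abundant gene per role, beside ORC1, ORC4 and RFC1, which were chosen after their values were seen. Members and lists were chosen with earlier results of these data known. Gene positions are from GENCODE 44 on GRCh37, and promoters from RefSeq on GRCh38.p14, with no conversion. Alternatives covered scaling, filter, pseudocount, length, replicate block and leaving out libraries. Epithelial, fibroblast, leukocyte and endothelial markers were checked as TPM.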

Additional observations from a re-analysis of the deposited data

Results flagged for a closer look

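The change against WT differed between lines by interaction terms (limma, adjusted p under 0.05 over all genes tested) for most of the 43 genes, as they did for 60.1 to 69.2% of all genes tested. For OX res, 43 differed between HCT116 and DLD-1, 38 between HCT116 and SW480 and 39 between SW480 and DLD-1, where 69.2%, 63.5% and 60.1% of all genes did. For 5-FU res, the counts were 34, 33 and 36 in the same order, beside 64.1%, 64.5% and 63.5% of all genes. The members with the largest differences in the OX effect were GINS2 (-3.74) and CDC45 (-3.64) for HCT116 minus DLD-1, E2F2 (-2.80) and MCM10 (-2.66) for HCT116 minus SW480, and RFC2 (-1.54) and POLA2 (-1.47) for SW480 minus DLD-1. In the 5-FU effect they were CDC6 (-1.01) and RFC2 (-0.98) for HCT116 minus DLD-1, GINS3 (-1.56) and E2F2 (-1.48) for HCT116 minus SW480, and E2F2 (2.19) and MCM2 (-1.26) for SW480 minus DLD-1. Outlying libraries were not looked for within groups, since each held 3.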

How the results depend on the processing

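Median-of-ratios scaling, no filter, no trend, a pseudocount of 0.1 and fits of the compared groups alone kept every count of called members for which they were run within 1.5 times. Without centring, the genes higher were 5 in HCT116 OX res and 4 in HCT116 OX res against 5-FU res. In SW480 5-FU res they were 12 lower and 19 higher with a median of 0.15, a change of sign, and in SW480 OX res 17 lower and 12 higher. The medians over all genes tested were 0.44 and 0.36 in these 2 cultures. HCT116 WT against DLD-1 WT had 17 lower and 17 higher with a median of -0.011, and SW480 WT against DLD-1 WT had 12 lower. For the 5-FU effect without centring, 3 were higher for HCT116 minus SW480, 14 lower with a median of 0.022 for HCT116 minus DLD-1, and 3 lower for SW480 minus DLD-1. For the OX effect, 2 were higher for HCT116 minus SW480 and 3 for SW480 minus DLD-1. Quantile normalization gave 11 higher in SW480 5-FU res, 4 higher in SW480 OX res, 1 lower in DLD-1 OX res, 2 higher for the OX effect of HCT116 minus SW480, and a median of 0.039 for the 5-FU effect of HCT116 minus DLD-1. Medians that otherwise moved by over 1.5 times were, under quantile normalization, -0.46 in HCT116 5-FU res, -0.15 in SW480 5-FU res, -0.22 in SW480 OX res, 0.23 for HCT116 WT against DLD-1 WT and 0.36 for the 5-FU effect of SW480 minus DLD-1. Without centring they were -0.045 in SW480 OX res, -0.16 in SW480 OX res against 5-FU res, 0.33 for SW480 WT against DLD-1 WT, and -0.50 and 0.64 for the 5-FU effect of HCT116 minus SW480 and of SW480 minus DLD-1. With the length trend removed, 4 were higher in SW480 OX res. With a mean TPM of at least 5, 2 were higher for the OX effect of HCT116 minus SW480 and 2 for SW480 minus DLD-1. Single genes that changed sign without centring were CDC6 in SW480 5-FU res (0.062) and OX res (0.098), E2F1 (0.22) and FEN1 (0.12) in SW480 5-FU res, and under quantile normalization E2F1 (0.061) and FEN1 (0.10) in SW480 5-FU res and POLD2 (0.081) in HCT116 5-FU res. Calls lost under quantile normalization were MCM7 in HCT116 5-FU res (-0.11), PCNA in HCT116 OX res (-0.11) and CDC6 in SW480 5-FU res (-0.076) and OX res (-0.012). E2F1 lost its call in SW480 OX res without centring (-0.045) and in SW480 5-FU res with the length trend removed (-0.13) or a mean TPM of at least 5 (-0.17). POLD2 (0.15) and PRIM1 (0.30) in DLD-1 OX res were called without centring. The cause was not tested.

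Leaving out libraries in turn, the genes higher in SW480 5-FU res ranged from 3 to 6, the 3 without SW480 5-FU res replicate 1. For the OX effect they ranged from 1 to 2 for HCT116 minus SW480, with 2 without HCT116 OX res replicate 3, and from 1 to 2 for SW480 minus DLD-1, with 2 without SW480 WT replicate 1. POLD2 in DLD-1 OX res, not called, ranged from -0.016 without DLD-1 WT replicate 1 to 0.037 without DLD-1 WT replicate 3. E2F1 in SW480 5-FU res was not called without SW480 5-FU res replicate 1 (-0.21) or replicate 2 (-0.18).

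Libraries of 1 number deviated together at r of -0.16 to 0.16, over 0.1 in 6 of 27 pairs. Those of different numbers did so at -0.19 to 0.23, over 0.1 in 5 of 54 pairs. Same-number pairs of HCT116 WT and OX res were at 0.075, 0.16 and 0.15, where pairs of different numbers were all negative. Deviations were taken from the mean of each group, which by itself pushes pairs of different numbers down where same-number pairs are positive. Same-number pairs of SW480 WT and 5-FU res were at -0.034, -0.13 and -0.074. The numbers were not used as pairs in the main fits. With the replicate block, 2 genes were higher for the OX effect of HCT116 minus SW480 in place of 1, and no other count moved by over 1.5 times. Absolute depth is unknown, so no limit of detection was set.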
